A study of Mus musculus with 3 samples.

Results

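The genes described here encode the translation initiation factors (symbols starting Eif and a digit) and translation elongation factors (Eef and a digit) of the mouse. They were chosen by symbol alone, leaving out the Y-linked gene Eif2s3y and pseudogene symbols, which gave 63 of the 32531 genes in the count tables. The RNA came from adult mice of the transgenic line Htr6-TRAP NIDA113 (Htr6-EGFP/Rpl10a) on the C57BL/6J background, and from the deep cerebellar nuclei. The transgene fuses EGFP to ribosomal protein L10a and is named for Htr6, a serotonin receptor gene, so the tagged cells are those in which the transgene is active. Tagged polysomes were pulled down with anti-EGFP antibodies (translating ribosome affinity purification, TRAP), and the RNA bound to them was sequenced. All 3 libraries, replicates 1, 2 and 3, belong to this single group of immunopurified samples, with no treatment named in the labels, so the comparisons are between genes within a library. Whether a library stands for its own animal or for a pool is not in the labels, so any p-value measures only the spread between these samples, which may be technical. Input RNA from before the pull-down was not analysed here, so no level is an enrichment.

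Initiation brings the first transfer RNA and the small ribosomal subunit to the start codon of a messenger RNA. eIF2 carries the initiator transfer RNA and is recharged with GTP by its exchange factor eIF2B, eIF3 is the large scaffold on the small subunit, and the cap-binding complex eIF4F joins the cap-binding protein eIF4E, the scaffold eIF4G and the RNA helicase eIF4A. In elongation, eEF1A delivers each charged transfer RNA and is recharged by eEF1B, eEF2 moves the ribosome along by a codon, and eIF5A relieves stalled ribosomes. Several of these factors exist as paralogs. Eef1a2 is known as the form of eEF1A that mature neurons and muscle take up in place of the widespread Eef1a1, and Eif4a2 is known as the more brain-rich partner of Eif4a1.

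The libraries held 7622010 to 8842058 counts assigned to genes. CPM is the usual read count scaled to library size, and RPKM is CPM per kilobase of a gene's merged exons. Levels of different genes are compared by RPKM, and CPM, which grows with transcript length, is used across libraries and for shares of counts, and where it is named. The 5 neuronal markers checked (among them Snap25 and Rbfox3) all had at least 10 counts in each library and summed to 14667 to 21811 CPM. The 5 markers of glutamatergic neurons of the deep nuclei summed to 421 to 662 CPM, and the 4 of GABAergic and glycinergic neurons to 397 to 889.8 CPM. Markers of neighbouring cell types were present too. The 4 granule cell markers summed to 2360 to 2488 CPM, the 4 Purkinje cell markers to 4169 to 5533 CPM, the 5 oligodendrocyte markers to 2883 to 3644 CPM and the 5 astrocyte markers to 2426 to 2782 CPM. The 5 microglial markers summed to 15.3 to 31.6 CPM, and 3 of them (C1qa, Aif1 and Trem2) had no count. Translation factors are used by every cell type, and the part of each type in their levels was not tested. The RNA was pulled down from many cells at once. In it, the number of tagged cells of a type, the RNA per cell and RNA from untagged cells cannot be told apart.

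The paralog pairs on which several results turn can be told apart by sequence. Within each pair, the first coding stretch that aligns without a gap is shown 5′ to 3′, with the bases that differ between the 2 genes in capitals, from the GENCODE M21 transcripts (GRCm38, the mm10 build).
Eef1a2: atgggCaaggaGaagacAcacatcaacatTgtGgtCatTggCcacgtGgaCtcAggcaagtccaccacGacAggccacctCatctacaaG
Eef1a1: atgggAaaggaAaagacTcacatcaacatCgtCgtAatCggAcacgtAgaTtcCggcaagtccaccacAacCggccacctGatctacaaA
Eif4a2: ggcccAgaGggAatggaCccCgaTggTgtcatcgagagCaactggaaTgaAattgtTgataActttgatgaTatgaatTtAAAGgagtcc
Eif4a1: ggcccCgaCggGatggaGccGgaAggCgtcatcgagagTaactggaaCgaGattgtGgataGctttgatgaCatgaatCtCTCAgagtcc
Eif5a2: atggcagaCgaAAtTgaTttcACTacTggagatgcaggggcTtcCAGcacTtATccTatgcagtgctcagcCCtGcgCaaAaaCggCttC
Eif5a: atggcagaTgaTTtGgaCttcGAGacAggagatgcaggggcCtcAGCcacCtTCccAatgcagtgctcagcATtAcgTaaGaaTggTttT
Over these 90 bases the eEF1A pair differs at 15 positions, the eIF4A pair at 18 and the eIF5A pair at 25. Over the whole coding sequence, 79.9% of the aligned columns are identical between Eef1a2 and Eef1a1, 77.8% between Eif4a2 and Eif4a1 and 72.7% between Eif5a2 and Eif5a. The longest run of identical coding bases is 23, 20 and 14 bases in these pairs. By contrast, Eif3j2 and Eif3j1 share an unbroken run of 781 coding bases, and their counts cannot be assigned to either with certainty.

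Near-identical copies at other loci bear on the counts of some genes, because reads that aligned to several places were not counted to genes. Of the 63 genes, 17 have a stretch of at least 75 bases at 97% identity or more in the annotated transcripts of another locus, and in 6 such stretches cover over 50% of the longest coding transcript. They cover 87.6% of the Eef1a1 transcript, with 6 other loci, 72.0% of Eef1g, 68.7% of Eif4a1 and 87.7% of Eif3m. They cover 57.7% of Eif3j1 and 100% of Eif3j2, the J subunit genes of eIF3. No such stretch was found for Eef1a2, Eef2, Eif5a2, Eif3a, Eif3c or the 3 eIF4G genes. These shares are from annotated transcripts only and do not count copies outside them.

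Most translation factor genes were detected, at very uneven levels. Of the 63 genes, 56 (88.9%) had at least 10 counts in all 3 libraries, where 27.6% of all genes in the tables did. The cap-binding gene Eif4e1b, known from the egg, had 0 counts in each library, which allows up to 0.397, 0.340 and 0.385 CPM, taking 3 counts as the limit and counting error only; 50.6% of all genes had no count. Together the 63 genes took 0.770%, 0.822% and 0.881% of the gene counts in replicates 1, 2 and 3. Their median was 4.81, 4.74 and 5.25 on the log2(CPM + 1) scale (mean 4.93 ± 0.28; SD, n = 3), beside 3.81 ± 0.03 for the 14036 genes that reached 10 counts over the libraries together. By mean RPKM, 41 of the 63 lay above the median of those genes with an annotated length, 3.94 RPKM, and 10 lay in their top 5%. A few genes held most of the counts: Eif4g3, Eif4g2, Eif3a, Eif5b and Eef2 made up 56.7% of the summed mean CPM of all 63.

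**Figure D1:**
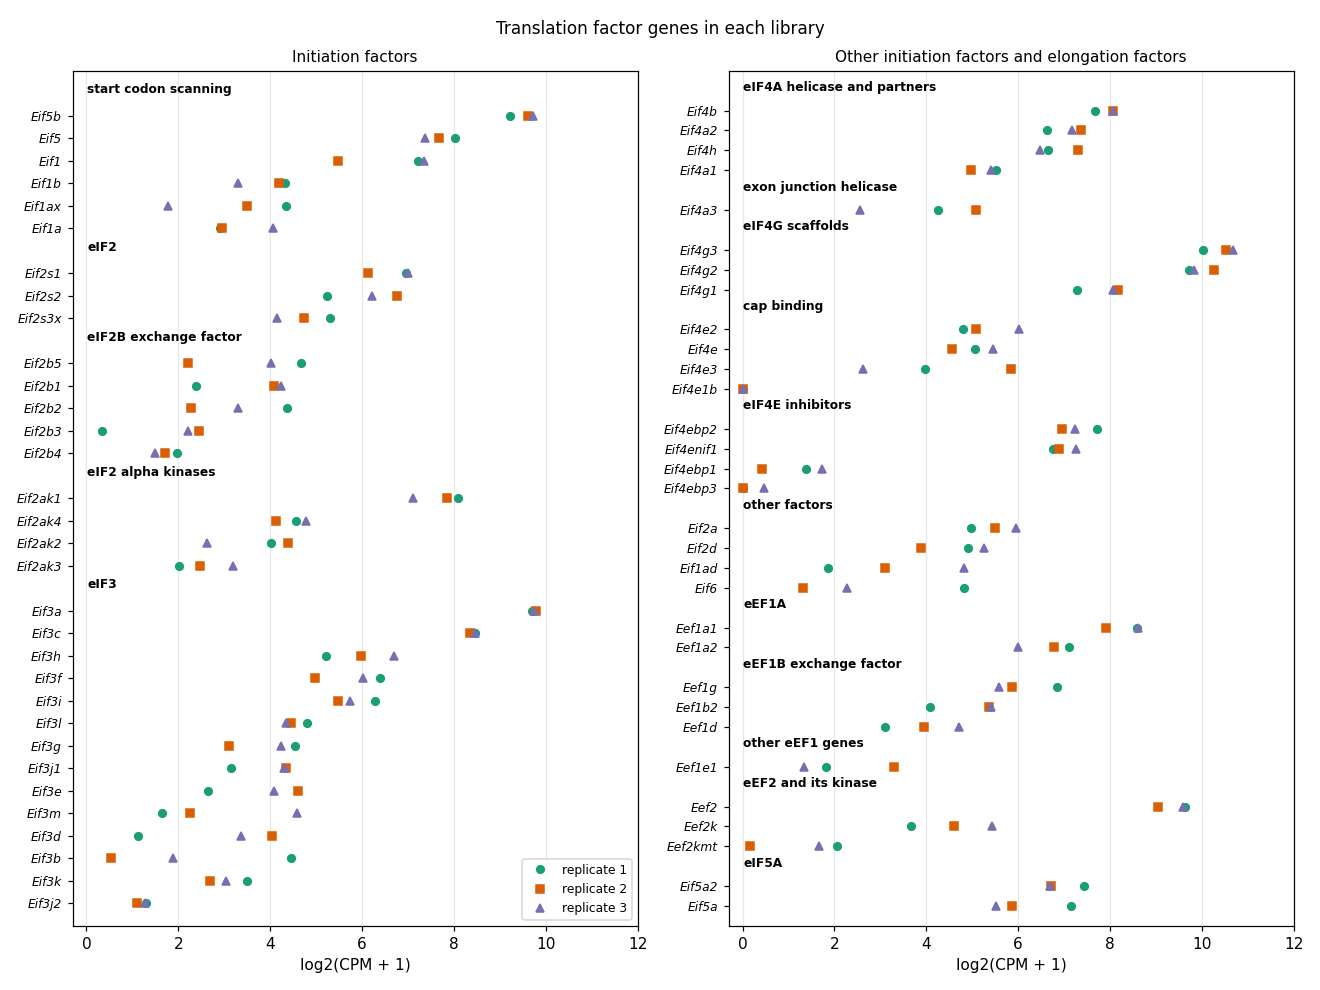
Each row is a gene, grouped by role, and each point is its level in a library on the log2(CPM + 1) axis (green circles, replicate 1; orange squares, replicate 2; purple triangles, replicate 3). Eif4g3, Eif4g2, Eif3a, Eif5b and Eef2 lie furthest to the right, Eif3a and Eif3c have nearly coinciding points, and genes such as Eif3b, Eif6 and Eif3m spread widely.

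Eef2 and Eef1a1 had the highest mean levels per length of the 63 genes, and which of both came first rested on the length used. In replicate 2, Eef1a1 at 96.7 RPKM was below Eif4g3 (133 RPKM), Eif4g2 (121 RPKM) and Eif3a (100.5 RPKM). Eef2, the translocase (plus strand of chromosome 10, positions 81176631 to 81182498 in mm10), had 238, 159 and 233 RPKM in replicates 1, 2 and 3 (209.9 ± 44.3; SD, n = 3). Its lowest library was replicate 2. Per merged exon length, the ratio of Eef2 to the sum of Eef1a1 and Eef1a2 was 1.09, 1.06 and 1.24. Scaled to the part of the transcript without near-identical copies, mean RPKM was 231 for Eef2, 1142 for Eef1a1 and 51.1 for Eef1a2, so the order of Eef2 and Eef1a1 turned. This scale divides all counts of a gene by that part alone. It overstates genes with copies, here and below, if reads were also counted in the copied part, which was not tested. The kinase that inactivates eEF2, Eef2k, was far lower at 1.59, 3.16 and 5.70 RPKM, and Eef2kmt, which methylates eEF2, had 24, 1 and 17 counts.

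The RNA of Eef1a1 exceeded that of Eef1a2 in every library. Eef1a1, on chromosome 9 (minus strand, 78478449 to 78489151), had 2878, 2125 and 3056 counts, or 153, 96.7 and 157 RPKM. Eef1a2, on chromosome 2 (minus strand, 181147653 to 181157014), had 1027, 961 and 491 counts, or 65.2, 52.3 and 30.2 RPKM. The ranges of both genes do not overlap, and Eef1a2 was lowest in replicate 3, where Eef1a1 was highest. Eef1a2 made up 29.9%, 35.1% and 16.1% of their summed RPKM. The difference of Eef1a2 minus Eef1a1 was -1.50 ± 0.78 on the log2(RPKM + 0.1) scale (SD, n = 3), with Eef1a2 lower in 3 of 3 libraries (exact two-sided sign-flip permutation p = 0.25). That p is the smallest that 3 libraries allow, here and for the 7 other paired differences, so each size is read against its SD and no adjusted p is given. Scaled to the part of each transcript without a near-identical copy, the difference was -4.52 ± 0.78, since little of the Eef1a1 transcript is free of copies. The neuronal markers summed to 21811, 20243 and 14667 CPM in replicates 1, 2 and 3, in the same order as Eef1a2. The glutamatergic markers of the deep nuclei had that order too, at 662, 476 and 421 CPM. Purkinje cell markers ran the other way, at 4169, 5265 and 5533 CPM, and so did astrocyte markers, at 2426, 2452 and 2782 CPM. GABAergic and glycinergic markers (706, 397 and 890 CPM) and granule cell markers (2405, 2488 and 2360 CPM) followed neither order. Neither did oligodendrocyte markers (3098, 3644 and 2883 CPM) or microglial markers (29.1, 31.6 and 15.3 CPM). The part of these cell types in the eEF1A result was not tested.

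The exchange factor of eEF1A was uneven in its subunits. Eef1g, the gamma subunit, had 44.1, 21.9 and 18.1 RPKM and was the highest of the 3 in every library. Eef1b2, the beta subunit, had 6.27, 15.9 and 16.3 RPKM. Eef1d, the delta subunit, had 1.16, 2.24 and 3.90 RPKM and was the lowest in every library. Neither neighbouring pair in this order overlapped between libraries. Eef1g and Eef1d moved in opposite directions over the libraries, with replicate 1 the highest for Eef1g and the lowest for Eef1d. Mean RPKM was 11.5-fold higher for Eef1g than for Eef1d, 7.04-fold higher when scaled to the longest coding transcript, and 24.5-fold higher on the scale without copies. Eef1e1, a relative of these subunits found in the aminoacyl-tRNA synthetase complex, had 19, 78 and 12 counts.

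For eIF5A, the difference between the paralogs was within its spread per merged exon length, and beyond it with both other lengths. Eif5a, the widespread form on chromosome 11 (minus strand, 69916714 to 69921958), had 59.1, 24.1 and 18.9 RPKM. Eif5a2, on chromosome 3 (plus strand, 28781276 to 28798846), had 34.0, 20.7 and 20.5 RPKM. Both were highest in replicate 1 and their ranges overlap. Eif5a2 minus Eif5a was -0.30 ± 0.46 (SD, n = 3), with Eif5a2 higher in replicate 3 only (exact permutation p = 0.5). Eif5a2 has the longer transcript, 5027 against 1437 bases. With the length of the longest coding transcript the difference was -1.03 ± 0.46, and on the scale without copies, which cover 32.2% of the Eif5a transcript, -1.56 ± 0.46, with Eif5a2 lower in 3 of 3 libraries in both cases.

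**Figure D2:**
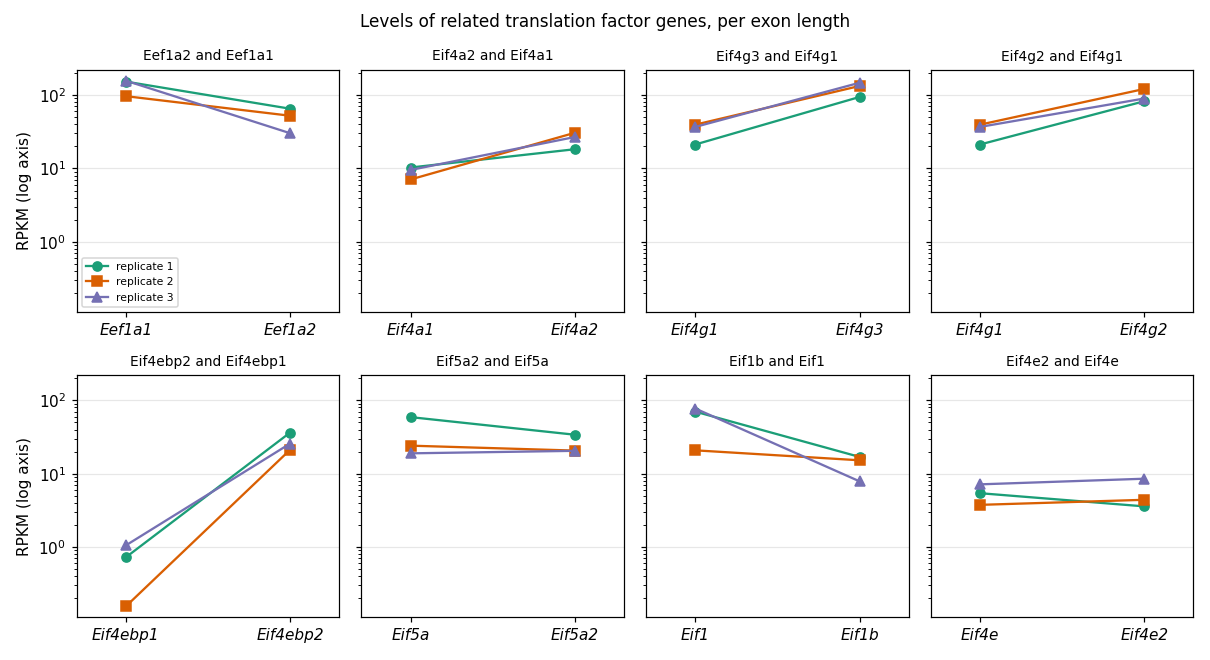
Each panel shows the RPKM (log axis) of 2 related genes, with a line joining the values of a library (green circles, replicate 1; orange squares, replicate 2; purple triangles, replicate 3). All lines fall from Eef1a1 to Eef1a2 and rise from Eif4g1 to Eif4g3 and Eif4g2, while the lines of the Eif5a and Eif4e panels run in both directions.

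Among the genes grouped here under start codon scanning, which include factors of nearby steps, Eif5b and Eif1 were the highest. Eif5b, the GTPase that joins the ribosomal subunits, had 61.4, 80.2 and 86.8 RPKM, and 16.8% of its exon bases overlap the gene Rev1 on the other strand. Eif1, which keeps the scanning ribosome open, had 1113, 385 and 1266 counts, or 70.2, 20.8 and 77.4 RPKM, with replicate 2 low. It was above Eif5b in replicate 1, and on the scale without copies its mean was 120.2 RPKM against 96.2 for Eif5b. Its paralog Eif1b had 16.9, 15.2 and 7.87 RPKM, below all values of Eif1. Eif1b minus Eif1 was -1.93 ± 1.42 on the log2(RPKM + 0.1) scale, below 0 in each of the 3 (exact permutation p = 0.25). The size varied from -0.45 in replicate 2 to -3.28 in replicate 3, and without replicate 3 the mean was -1.25. Eif5, which triggers GTP hydrolysis by eIF2, had 37.9, 29.7 and 24.1 RPKM. Eif1ax, the X-linked gene of eIF1A, had 146, 91 and 19 counts and Eif1a had 49, 59 and 122, so the lower of both was Eif1a in replicates 1 and 2 and Eif1ax in replicate 3. Of the other initiation factors, Eif2a was the highest, at 7.38 ± 2.49 RPKM. Eif6, which keeps the ribosomal subunits apart, had 207, 13 and 30 counts, and Eif1ad had 20, 67 and 212.

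Subunits of eIF2 were present at moderate levels with no fixed order. Eif2s1, the alpha subunit that stress kinases phosphorylate, had 25.0, 13.8 and 25.8 RPKM. Eif2s2, the beta subunit, had 5.45, 15.9 and 10.9 RPKM, and was above Eif2s1 in replicate 2. Eif2s3x, the X-linked gamma subunit, had 10.1, 6.73 and 4.41 RPKM. The ranges of neighbours in this order overlap in both cases, and scaled to the part without copies Eif2s2 came first, at 46.8 mean RPKM against 32.0 for Eif2s1. Summed over the 3 genes, eIF2 was at 199, 201 and 218 CPM, a smaller spread than that of each gene.

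The subunits of eIF2B were low. Eif2b2 had 10.3, 2.05 and 4.70 RPKM and Eif2b5, the catalytic subunit, had 9.39, 1.40 and 5.84. Both were highest in replicate 1 and lowest in replicate 2. Eif2b1 went the other way, with 1.64, 6.20 and 6.86 RPKM. Eif2b4 had 22, 20 and 14 counts and Eif2b3 had 2, 39 and 28 counts, and Eif2b3 was the lowest of the complex in every library by RPKM. Summed over its 5 genes, eIF2B was at 51.2, 30.2 and 47.1 CPM.

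Of the 4 kinases that phosphorylate eIF2 alpha, Eif2ak1 was by far the most abundant. Eif2ak1, known as the haem-regulated inhibitor HRI, had 47.8, 40.7 and 24.3 RPKM (37.6 ± 12.1; SD, n = 3). It made up 88.1%, 85.5% and 80.5% of the summed RPKM of the 4 genes. Eif2ak4, the amino acid sensor GCN2, had 3.02, 2.22 and 3.53 RPKM. Eif2ak2, the double-stranded RNA sensor PKR, had between 1.004 and 3.91 RPKM (114, 176 and 40 counts), overlapping Eif2ak4. Eif2ak3, the endoplasmic reticulum stress sensor PERK, had 23, 40 and 63 counts, or 0.505, 0.753 and 1.34 RPKM. The lowest Eif2ak1 value lay above the highest of any other kinase, and the order was the same when scaled to the longest coding transcript. Of the Eif2ak1 exon bases, 8.6% overlap Aimp2 on the other strand.

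Within eIF3, Eif3a and Eif3c stood apart both in level and in how little they varied. Eif3a, the largest scaffold subunit (minus strand of chromosome 19, positions 60761117 to 60790658), had 95.3, 100.5 and 97.4 RPKM. Eif3c had 99.3, 92.4 and 101 RPKM. Their ranges overlap each other and no other subunit, and together they held 80.1%, 83.7% and 78.3% of the CPM of the 14 eIF3 genes. With 2.64% and 4.51%, they had the lowest coefficients of variation (CV, the SD of CPM over its mean) of the 45 members averaging 100 counts or more. Scaled to the longest coding transcript, Eif3a was at 166 and Eif3c at 101 mean RPKM and they were still the highest 2.

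The other 12 subunit genes lay lower. Eif3h had 22.3, 38.7 and 63.4 RPKM, highest in replicate 3, and Eif3f had 28.5, 10.6 and 22.1, lowest in replicate 2. Eif3i had 20.7, 11.7 and 14.2 RPKM. Eif3b, which belongs with Eif3a to the core of the complex, had 158, 4 and 21 counts and fell to 0.136 RPKM in replicate 2. Eif3d, which can bind the cap, had 9, 135 and 73 counts, and Eif3m had 16, 33 and 179. Of the Eif3d exon bases, 43.3% overlap Gm17638 on the other strand, a symbol absent from the count tables. In the order of mean RPKM, 11 of the 13 neighbouring pairs overlapped between libraries, and the exceptions were Eif3c with Eif3h and Eif3i with Eif3g. Below Eif3c, the order changes with the length used. Eif3m moved from the 8th place to the 3rd when scaled to the part of its transcript without a copy, at 60.8 mean RPKM against 3.71. Mean RPKM of the RNA ranged over 174-fold from Eif3a to Eif3j2, or 60.5-fold from Eif3a to Eif3b on the scale without copies, where Eif3j2 has no value.

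**Figure D3:**
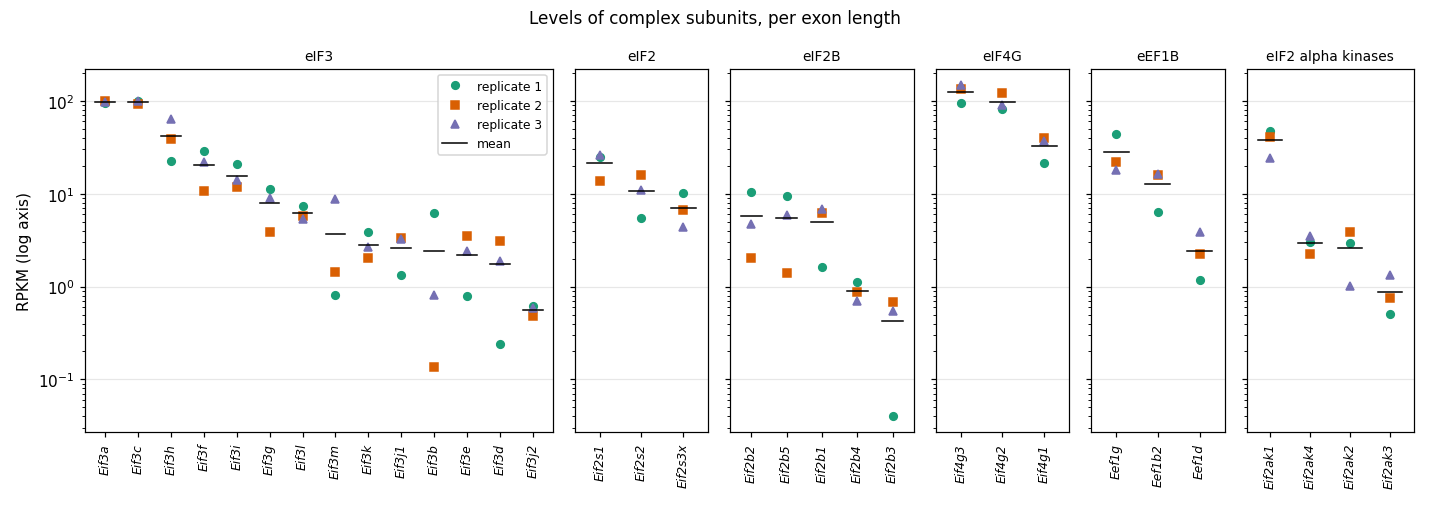
Each panel is a complex or group, with its genes ordered by mean RPKM (black bars, log axis) and the 3 libraries as points (green circles, replicate 1; orange squares, replicate 2; purple triangles, replicate 3). Eif3a and Eif3c are high and tight at about the same level, the points of most lower eIF3 and eIF2B genes overlap, and Eif2ak1 lies above the other kinases in every library.

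Among the eIF4G scaffolds, Eif4g3 and Eif4g2 were each above Eif4g1. Eif4g3, the form eIF4GII, lies on the plus strand of chromosome 4 (positions 137993022 to 138208508). It had 7881, 12981 and 12705 counts, or 94.3, 133 and 147 RPKM. Eif4g2, also known as DAP5, which lacks the cap-binding end and serves cap-independent initiation (minus strand of chromosome 7, positions 111067750 to 111083030), had 82.5, 121 and 89.9 RPKM. Eif4g1, the form eIF4GI on chromosome 16 (plus strand, 20668313 to 20692884), had 21.2, 39.5 and 36.8 RPKM. Eif4g1 was the lowest of the 3 in every library, with no overlap, while the ranges of Eif4g3 and Eif4g2 overlap. Eif4g3 minus Eif4g1 was 1.97 ± 0.20 on the log2(RPKM + 0.1) scale, or 3.90-fold (SD, n = 3; exact permutation p = 0.25), and positive in all 3 libraries. Eif4g2 minus Eif4g1 was 1.62 ± 0.33, or 3.07-fold (exact permutation p = 0.25), also positive in all 3. These 2 differences had the smallest SD of the 8 and moved least between the 3 lengths used. By share, Eif4g3 held 47.6%, 45.3% and 53.8% of the summed RPKM of the 3 genes.

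For the helicase eIF4A, which of both genes was higher rested on the length used. Eif4a2, on chromosome 16 (plus strand, 23107444 to 23114136), had 737, 1441 and 1116 counts, or 18.3, 30.6 and 26.8 RPKM. Eif4a1, on chromosome 11 (minus strand, 69666936 to 69672423), had 337, 270 and 322 counts, or 10.3, 7.07 and 9.53 RPKM. The ranges do not overlap, and Eif4a2 minus Eif4a1 was 1.47 ± 0.64 (SD, n = 3; exact permutation p = 0.25), and above 0 in each of the 3 libraries. Near-identical copies cover 68.7% of the Eif4a1 transcript and 15.5% of that of Eif4a2. Scaled to the part without copies, the difference was -0.31 ± 0.64, within its SD and of the other sign. That value takes all counts of Eif4a1 to come from the part without copies, which was not tested. Eif4b, the cofactor of the helicase, had 45.7, 59.9 and 59.7 RPKM, above Eif4a2, Eif4h and Eif4a1 in every library. On the scale without copies Eif4a1 came first, at 69.9 mean RPKM against 65.1 for Eif4b. Eif4h, related to Eif4b, had 18.0, 28.4 and 15.9 RPKM. Eif4a3, a helicase of the exon junction complex rather than of initiation, had 136, 289 and 38 counts.

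**Figure D4:**
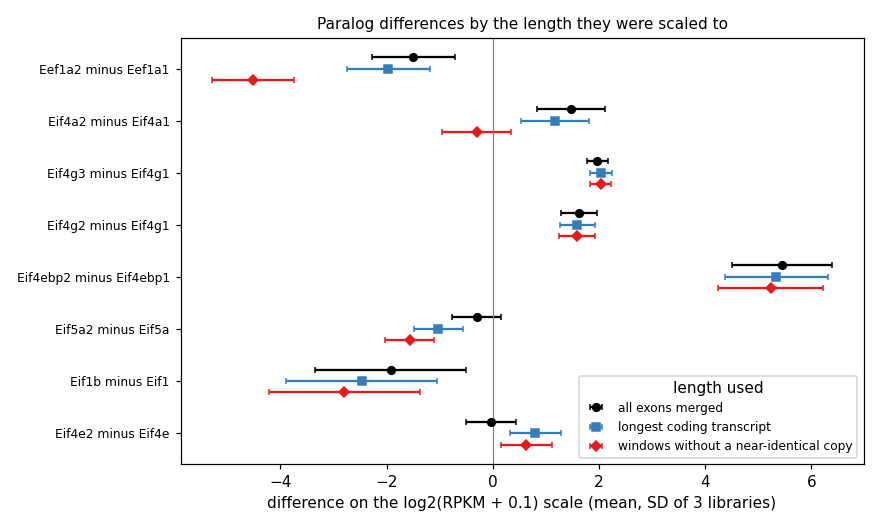
Each row is a difference between 2 related genes on the log2(RPKM + 0.1) scale, as the mean with the SD of 3 libraries, with RPKM scaled to all exons merged (black circles), to the longest coding transcript (blue squares) or to the windows without a near-identical copy (red diamonds). The eIF4G and eIF4E-binding protein differences keep their place, Eef1a2 minus Eef1a1 moves from -1.50 to -4.52, and Eif4a2 minus Eif4a1 moves from 1.47 to -0.31.

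Cap-binding genes were low beside the scaffolds. Eif4e, the cap-binding protein itself, had 5.42, 3.76 and 7.16 RPKM. Eif4e2, a cap-binding relative known to repress translation, had 3.58, 4.41 and 8.54 RPKM. Their difference, Eif4e2 minus Eif4e, was -0.04 ± 0.47, well within its SD and with Eif4e2 higher in replicates 2 and 3 (exact permutation p = 1.0). It was 0.80 ± 0.48 with the length of the longest coding transcript. Eif4e3 varied most, with 111, 494 and 40 counts. It has a CV of 107%, the highest of the 45 members averaging 100 counts or more.

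Of the 3 Eif4ebp genes, whose proteins bind and block eIF4E, Eif4ebp2, the form known as dominant in the brain, was nearly the only one found. Eif4ebp2 had 36.4, 21.2 and 25.8 RPKM. Eif4ebp1 had 12, 3 and 18 counts, or 0.723, 0.155 and 1.05 RPKM, and Eif4ebp3 had 0, 0 and 3 counts. Of the Eif4ebp3 exon bases, 67.3% overlap AC115631.1 on the same strand, a symbol absent from the count tables. Whether this overlap lowered the counts of Eif4ebp3 was not tested. Eif4ebp2 minus Eif4ebp1 was 5.45 ± 0.95 (SD, n = 3; exact permutation p = 0.25), and above 0 in each of the 3 libraries. In replicate 2 the ratio of RPKM was 137, with an exact 95% interval of 46.7 to 664 that covers counting error only, because it rests on 3 counts of Eif4ebp1. In replicates 1 and 3 the ratio was 50.3 (28.7 to 97.6) and 24.5 (15.4 to 41.5). The 3 binding protein genes summed to 6.85, 5.68 and 3.82 times the RPKM of Eif4e. Eif4enif1, the carrier that takes eIF4E into the nucleus, had 16.9, 18.5 and 23.9 RPKM.

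Other genes of translation, from a list that was not part of the symbol rule, were mostly detected as well. Of 52 such genes in the tables, 39 had at least 10 counts in all 3 libraries (27.6% of all genes did), with a median of their mean RPKM of 5.79 beside 7.38 for the 63 factors. Within each group, the genes named are the highest and the lowest by mean CPM. The 10 translation repressors all passed this count, from Cyfip2 (1760 ± 229.8 CPM; SD, n = 3), a partner of the fragile X protein, to Gigyf1 (7.07 ± 5.09 CPM). Of 8 termination and recycling genes 5 did, led by the release factor gene Gspt1 (158 ± 52.7 CPM), while Pelo, which rescues stalled ribosomes, had 26, 2 and 16 counts. The poly(A)-binding group ranged from Pabpc1 (300.3 ± 89.7 CPM) to Paip2b, and the helicase group from Ddx3x (416 ± 63.1 CPM) to Dhx29. In the eIF2 stress pathway, the transcription factor gene Atf4 was highest (60.0 ± 35.7 CPM, with 285, 362 and 788 counts). Its target Trib3 had no count in any library, while 6 of the 8 genes of this group had at least 10 counts in all 3. The mitochondrial factors ran from Gfm1 (46.2 ± 10.9 CPM) to Mtrf1 with 4, 1 and 4 counts. Mknk2, an eIF4E kinase, had 2, 945 and 132 counts, and Dhps, an enzyme that makes the hypusine residue of eIF5A, had 0, 8 and 3. Secisbp2 (66.3 ± 19.9 CPM) led the selenocysteine and diphthamide group, and Dph2 was the lowest.

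Nearly all translation factor genes varied between libraries beyond counting error, as nearly all genes did. A smaller share of them than of all genes varied 5 times or more, but these shares are not matched for level, and the members lay higher. Of the 61 with at least 10 counts in 2 libraries, 59 (96.7%) varied by more than Poisson error allows, by a chi-square test at a Benjamini-Hochberg adjusted p under 0.05, where 96.5% of all 11168 genes tested did. Both exceptions, Eif2b4 and Eif3j2, had few counts. By edgeR's quasi-likelihood dispersion, 0 of the 61 varied more than genes of their level at an adjusted p under 0.05 and 0 at an unadjusted p under 0.05, where 0% and 4.27% of all genes did. A limma variance test also called 0 after adjustment, of the members and of all genes. It called 1 member at an unadjusted p under 0.05, for which no share of all genes is given. The quasi-likelihood test found only a minority of the changes put into simulated data of this size, so its count of 0 says little about how evenly these genes were measured. In 14 of the 61 (23.0%) the highest library exceeded the lowest 5 times or more, where 36.3% of all genes did, and in none of the 61 was a library at 0 while another had 50 counts or more (4.35% of all genes). The 14 did not share a library: 6 were highest in replicate 1, 5 in replicate 2 and 3 in replicate 3. After Eif3a and Eif3c, the lowest CV among genes with a mean of at least 100 counts was that of Eif4b (14.8%), Eif5b (17.3%) and Eif3l (18.2%). The highest, after Eif4e3, were those of Eif4a3 (75.3%), Eif2b5 (72.2%), Eif5a (64.1%) and Eif3e (60.8%). Below 100 CPM the members' median CV was the lower: 82.2% against 85.8% for all genes at 3 to 10 CPM, 58.0% against 69.8% at 10 to 30 CPM (19 members), and 44.4% against 46.5% at 30 to 100 CPM. At 100 to 300 CPM it was 30.7% for 12 members and 29.6% for all 1438 genes of that level, and above 300 CPM it was 21.1% for 7 members and 18.3% for 629 genes. These medians are descriptions and were not tested.

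**Figure D5:**
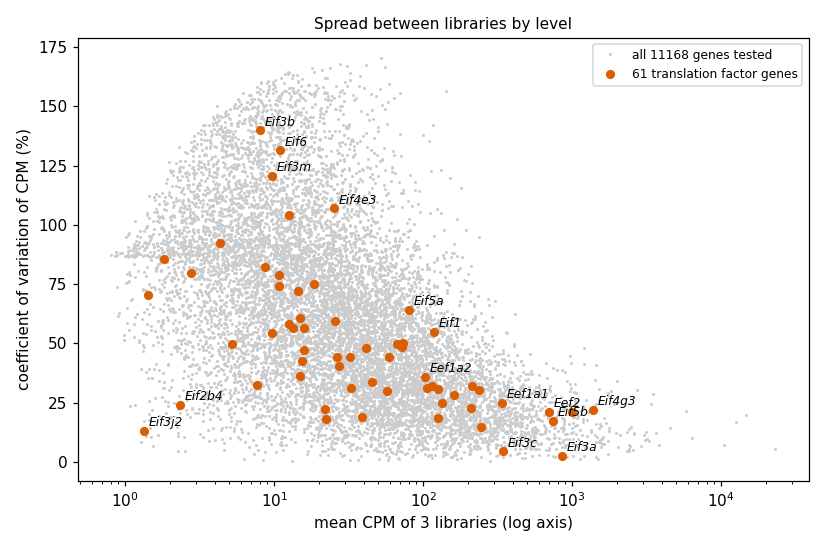
Each grey point is 1 of the 11168 genes tested and each orange point 1 of the 61 translation factor genes, by mean CPM (log axis) and the coefficient of variation over 3 libraries. The orange points follow the grey cloud, with Eif3a and Eif3c at its lower edge and Eif3b, Eif6, Eif3m and Eif4e3 high in it.

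Longer transcripts took more counts among these genes, as they did among all genes. Across the 61 genes with at least 10 counts summed, Spearman's rho between the length of the longest coding transcript and mean CPM was 0.36, and between that length and RPKM scaled to it 0.03. Over the 12018 genes with a coding transcript the values were 0.41 and 0.09. These correlations run across genes, which share libraries and depth and are not independent. The 19 members under 2 kb had a median of 14.4 RPKM on this scale, the 26 members of 2 to 4 kb 9.04 RPKM and the 16 longer members 26.4 RPKM. For all genes of these lengths the medians were 5.25, 4.79 and 7.89 RPKM, also lowest in the middle class and highest in the longest.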

How the data were processed

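The authors deposited 1 table of raw read counts per gene for each library (STAR 2.0.0e, HTSeq and build mm10, per the submitters' processing notes); the sources used here do not name the annotation, the strand setting or the read length. HTSeq's summary rows were left out. Unassigned (no-feature) reads made up 50.2%, 44.1% and 44.7%, and ambiguous reads 1.77%, 1.94% and 1.88%, of gene, no-feature and ambiguous reads together. Multiply aligned reads (3710157 to 5263183) were not counted to genes. The gene counts were 7695397, 8842058 and 7622010. As the strand setting is not named, reads from exons shared with a gene on the other strand may be mixed or, as ambiguous reads, left uncounted.

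CPM used TMM library sizes (edgeR 4.0.16, R 4.3.3) and RPKM the merged exon length of GENCODE M21, which matched all 63 genes by symbol. Pseudocounts were 1 on CPM and 0.1 on RPKM, which understates folds of low genes. The 8 paired differences were tested within libraries by exact sign flips, and spread by a Poisson chi-square test and by the quasi-likelihood dispersion (intercept only, against an F distribution), over all genes with at least 10 counts in 2 libraries, with Benjamini-Hochberg adjustment at 0.05. Both spread tests were run on simulated data, each on its own. The Poisson test found nearly all genes changed in counts with Poisson error only. The quasi-likelihood test was given larger changes, in counts that also varied beyond Poisson error, and found only a minority of those. DESeq2 1.42.0 and limma 3.58.1 gave alternatives. Copies were found with BLAST+ 2.17.0, and a window of 75 bases was counted as copied where it lay wholly in such a stretch. The scale without copies divides all counts of a gene by its other windows, so it is an upper value for genes with copies.

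Named genes are those of the pairs, all subunits of eIF2, eIF2B, eIF4G, eEF1B and the eIF2 alpha kinases, the highest and lowest members of the other role lists, and the members of highest and lowest CV; some further members are named to complete a group. The members, lists and pairs were chosen with earlier results of these data known.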

Additional observations from a re-analysis of the deposited data

How the results depend on the processing

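Of 40 alternative values for the 8 paired differences, without counting those that leave out a library, 35 kept their direction and 5 reversed. The library scale nearly cancels in a difference within a library, so the values with DESeq2 size factors could hardly reverse. A pseudocount of 1 on RPKM cannot turn the sign in a single library. All 5 reversals came with a change in the length used, so the 35 overstate how firm the directions are. Scaled to windows without a near-identical copy, a choice made after seeing the data, Eif4a2 minus Eif4a1 was -0.31 and Eif4e2 minus Eif4e 0.63. Without length scaling, Eif5a2 minus Eif5a was 0.77 and Eif4e2 minus Eif4e 0.27, and with the longest coding transcript the latter was 0.80. Leaving out a library kept the direction of 23 of 24 differences. The exception was Eif4e2 minus Eif4e, which ran from -0.18 to 0.24, the latter without replicate 1. The range was -1.80 to -1.06 for Eef1a2 minus Eef1a1, 1.15 to 1.79 for Eif4a2 minus Eif4a1, 1.87 to 2.07 for Eif4g3 minus Eif4g1, 1.45 to 1.79 for Eif4g2 minus Eif4g1 and 4.98 to 5.93 for Eif4ebp2 minus Eif4ebp1. It was -0.51 to -0.05 for Eif5a2 minus Eif5a and -2.66 to -1.25 for Eif1b minus Eif1. The cause of these changes was not tested. The median level of the members was 3.15 on the log2(RPKM + 1) scale and 4.77 to 5.03 on the CPM scale with a library left out. Members varying beyond counting error numbered 46 to 50 of 56 to 59 tested with a library left out, when 7877 to 7977 of all genes did. The number of all genes tested in these runs is not given here, so the members cannot be read against a share of all genes. Members varying beyond genes of their level numbered 0 in each case, by edgeR's quasi-likelihood test with adjustment. Members with at least 10 counts in every library left numbered 56 to 59, also without a share of all genes beside them. The planned length without copies anywhere in the genome was not run, because a genome sequence was not used here. No paired analysis was possible because all libraries belong to 1 group; the differences between genes are taken within each library. Genes with few counts, such as Eif2b3, Eif3j2 and Eef2kmt, are limited by depth.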
